A study of Caenorhabditis elegans with 23 samples.

Results

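The libraries labelled ccr-4 RNAi are 2 of the 23 PAT-seq libraries of this Caenorhabditis elegans series, and they are set here against the 2 control RNAi libraries of the same sequencing run. All 4 are whole young adult worms of the gld-2(q497) mutant strain fed Escherichia coli HT115(DE3), with bacteria that carry double-stranded RNA against ccr-4 in the first pair and the non-targeting pcb19 RNAi in the second. Membership of the groups follows the labels. PAT-seq reads the 3′ end of each mRNA together with its poly(A) tail, so it gives for every gene row a read count, a count of reads with a tail, and the mean tail length in nucleotides (nt). The same run held gld-2 worms on RNAi labelled ccf-1, parn-1, caf-1 or panl-2, with 2 libraries each, and an earlier run held untreated N2, gld-2 and cpb-3 adults, with 3 libraries each. The labels of the libraries give the gld-2 strain and were followed here, although the treatment protocol speaks of N2 worms at the RNAi step.

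The poly(A) tail of an mRNA is lengthened by poly(A) polymerases and shortened by deadenylases, and mRNAs with short tails are as a rule translated less or decayed sooner. GLD-2 is the main cytoplasmic poly(A) polymerase of the C. elegans germ line, and gld-2 mutants are sterile. CCR-4 and CCF-1 are the 2 catalytic deadenylase subunits of the CCR4-NOT complex, which RNA-binding proteins such as PUF and Nanos family members bring to their target mRNAs. The comparison asks whether mRNA levels and tail lengths differ when RNAi against one of these deadenylases is given to worms that already lack this polymerase. As the worms were whole, germ line and soma were read together.

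Total counts were 8824998 and 10540444 in libraries labelled ccr-4 RNAi, against 8605988 and 2200091 in control RNAi. Tailed reads made up 56.6% and 56.4% of counts in libraries labelled ccr-4 RNAi, against 62.8% and 53.6% in control RNAi. Control replicate 2 was the shallowest library of the series, and it limits every per-gene value below. Ribosomal RNA took 10.4% and 11.4% of counts in libraries labelled ccr-4 RNAi, against 18.8% and 11.4% in control RNAi. The gld-2 gene had 5.33 and 4.46 CPM (reads scaled to a common library total) in libraries labelled ccr-4 RNAi, against 3.25 and 6.36 CPM in control RNAi, while untreated gld-2 adults had 2.61 to 4.89 CPM and N2 adults 11.3 to 13.1 CPM. By this gene all 4 lay closer to gld-2 than to N2 adults. Sperm genes lay between both strains, nearer in percentage points to N2 than to gld-2 adults. Their share of counts outside ribosomal RNA was 0.0666% to 0.151% in the 4, 0.667% to 0.849% in gld-2 adults and 0.0195% to 0.0306% in N2 adults. Oocyte mRNAs of a marker list took 0.378% and 0.449% of counts outside ribosomal RNA in libraries labelled ccr-4 RNAi, against 0.374% and 0.36% in control RNAi. Whether the 2 replicates of a group were grown separately is not stated, and the spread that p-values rest on may therefore be technical.

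Reads at the targeted gene ccr-4 were higher, not lower, where the label names RNAi against it. The ccr-4 row (IV: 12361630 to 12370602, build ce10) had 7570 and 11130 reads in libraries labelled ccr-4 RNAi, against 38 and 56 reads in control RNAi. Scaled by TMM, which is edgeR's correction for library composition, this was 902 and 1057 CPM in libraries labelled ccr-4 RNAi, against 5.37 and 26.2 CPM in control RNAi. The log2 change was 6.08 ± 0.97 (SE), with an unadjusted p of 7.2e-05 and an adjusted p of 0.713 by edgeR's quasi-likelihood test; DESeq2 gave an adjusted p of 3.6e-05. Unscaled, the other 10 RNAi libraries held 2.91 to 25.4 CPM and the 9 adult libraries of the earlier run 0.45 to 3.59 CPM. At this row the 2 libraries labelled ccr-4 RNAi thus stood above every other adult library of the series. The mean tail of the ccr-4 reads was 29.9 and 15.3 nt in libraries labelled ccr-4 RNAi, against 23.1 and 19.3 nt in control RNAi, and the groups overlapped. Read counts per row do not separate endogenous ccr-4 mRNA from RNA of the RNAi trigger, so neither the presence nor the extent of a knock-down was measured. Other groups showed the same at their own target, given here without TMM scaling. The panl-2 row had 149 and 972 CPM in panl-2 RNAi, against 14.1 and 14.5 CPM in control RNAi. For parn-1 there were 78.5 and 44.7 CPM in parn-1 RNAi, against 10.6 and 12.7 CPM in control RNAi. The ccf-1 row differed less, with 89.9 and 86.4 unscaled CPM in ccf-1 RNAi, against 77.3 and 72.7 unscaled CPM in control RNAi.

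**Figure D1:**
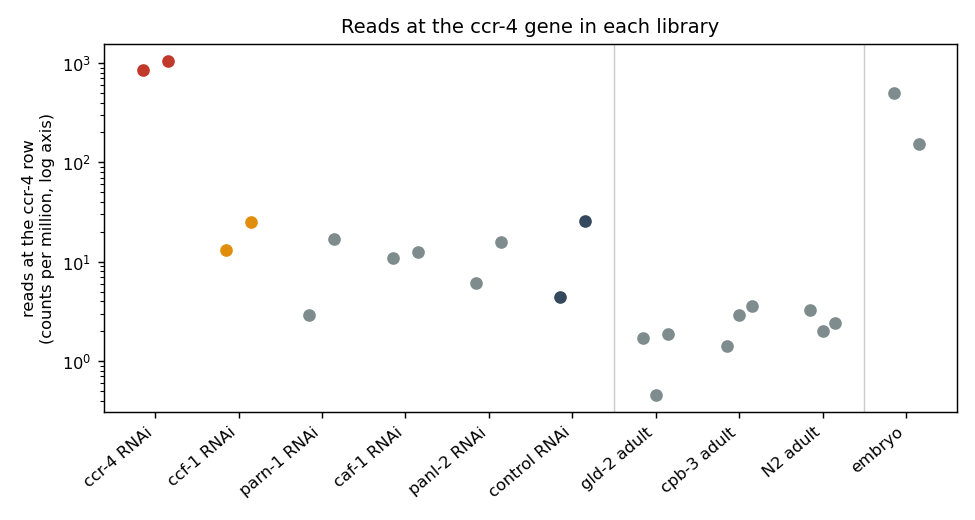
Reads at the ccr-4 row in each adult and embryo library, in CPM without TMM scaling on a log axis. Each point is 1 library, and the vertical lines separate the RNAi groups, the untreated adults of the earlier run and the embryos. The 2 libraries labelled ccr-4 RNAi lie at 858 and 1056 CPM, and the other 10 RNAi libraries between 2.91 and 25.4 CPM.

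Tails of the median gene were 2.34 nt longer in libraries labelled ccr-4 RNAi than in control RNAi, and no single mRNA passed the test. Over the 6785 genes measured in all 12 RNAi libraries, the median tail was 36.7 and 34.3 nt in libraries labelled ccr-4 RNAi, against 33.8 and 32.1 nt in control RNAi. Both values lay above both control values, with means of 35.5 ± 1.69 nt in libraries labelled ccr-4 RNAi and 33 ± 1.24 nt in control RNAi (SD, n = 2 each). The difference of 2.55 nt had an exact two-sided permutation p of 0.333, which is the smallest that 2 libraries against 2 can give. It was 1.36 nt without replicate 1 of ccr-4 RNAi and 1.67 nt without control replicate 2, so its size rests in part on these libraries. The parn-1, caf-1 and panl-2 RNAi groups also lay above control RNAi, with means of 34.34, 34 and 34.56 nt. Replicate 1 of each of them, at 35.76, 35.41 and 35.61 nt, lay above replicate 2 of ccr-4 RNAi. Genes with a mean tail over 50 nt made up 10.6% and 7.07% in libraries labelled ccr-4 RNAi, against 6.22% and 6.53% in control RNAi. Genes under 20 nt made up 1.95% and 2.54% in libraries labelled ccr-4 RNAi, against 3.23% and 5.35% in control RNAi. Both libraries labelled ccr-4 RNAi thus held more long-tailed and fewer short-tailed genes than either control library.

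**Figure D2:**
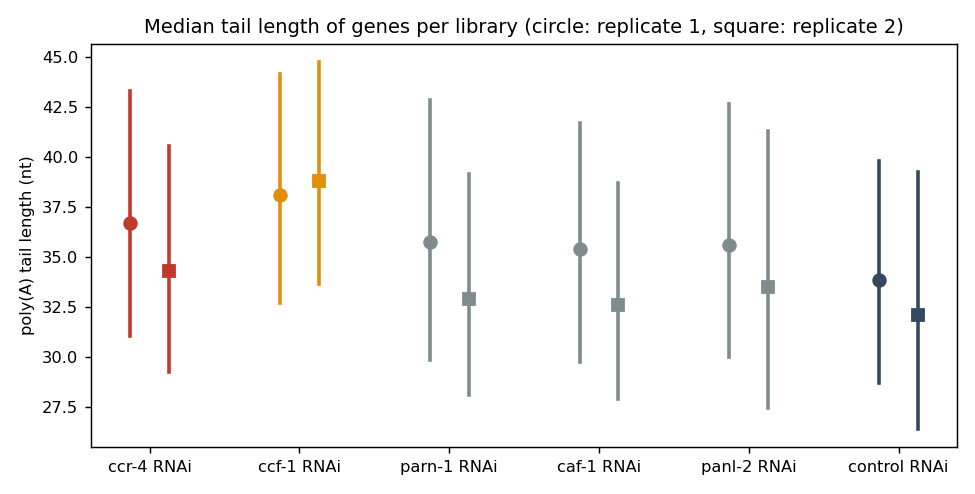
Median (symbol) and quartiles (line) of mean tail length over 6785 genes in each of the 12 RNAi libraries of gld-2 worms, in nt; circles are replicate 1 and squares replicate 2. The libraries labelled ccr-4 RNAi have medians of 36.7 and 34.3 nt, ccf-1 RNAi 38.1 and 38.8 nt, and control RNAi 33.8 and 32.1 nt. Those of parn-1 RNAi are 35.8 and 32.9 nt, caf-1 RNAi 35.4 and 32.6 nt, and panl-2 RNAi 35.6 and 33.5 nt.

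Gene by gene, limma called 0 of 6698 tail lengths different at an adjusted p under 0.05 (0% of genes; smallest adjusted p 0.674). At an unadjusted p under 0.05 there were 486 genes (7.26%), of which 452 had longer and 34 shorter tails in libraries labelled ccr-4 RNAi. The tail differences had quartiles of 0.05 and 4.79 nt, and 75.4% of genes were on the longer side. Without replicate 1 of ccr-4 RNAi the median difference was 1.18 nt. Both libraries labelled ccr-4 RNAi lay above both control libraries in 2339 genes (34.9%), and below both in 410 (6.12%). The standard error of a gene's tail difference had a median of 3.82 nt, so a difference near the median of all genes was below what a single gene could show. Among 255 genes with at least 500 tailed reads in each of the 4 libraries, the median was 1.78 nt and 91% were on the longer side.

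The 5 genes named for longer tails are given as values, none of them called. The mRNA of fzy-1, the CDC20 homolog that activates the anaphase-promoting complex, had tails of 41.9 and 38.4 nt in libraries labelled ccr-4 RNAi, against 28.6 and 27.8 nt in control RNAi (difference 11.99 ± 2.71 nt, limma adjusted p = 0.674). For hpl-2, a heterochromatin protein 1 homolog, tails were 40.2 and 35.1 nt in libraries labelled ccr-4 RNAi, against 29.4 and 24.5 nt in control RNAi. The mRNA of sas-5, a centriole assembly factor, had 49.4 and 44.6 nt in libraries labelled ccr-4 RNAi, against 36.3 and 19.1 nt in control RNAi. Its control values lay far apart, and the lower one rested on 14 tailed reads. Smaller spreads were seen for dlat-2, an acetyltransferase subunit of pyruvate dehydrogenase, with 48.4 and 46.7 nt in libraries labelled ccr-4 RNAi, against 40 and 38.7 nt in control RNAi. The fifth, vha-1, encodes a subunit of the proton-pumping V-ATPase and had 61.9 and 57.3 nt in libraries labelled ccr-4 RNAi, against 54 and 49 nt in control RNAi. Groups that did not overlap were a condition for naming these 5 genes, and 34.9% of all genes met it on the longer side. All 5 had the same adjusted p of 0.674 by limma. For fzy-1, tails were also above control RNAi in parn-1 RNAi (37.1 and 36.8 nt) and caf-1 RNAi (39.2 and 38.6 nt). They were 33.9 and 39.5 nt in panl-2 RNAi and 45.4 and 47.7 nt in ccf-1 RNAi. Every other RNAi library lay above both control libraries for hpl-2 and vha-1 too, but not for sas-5 and dlat-2.

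On the shorter side the values rested on few reads. The mRNA of cnc-4, an antimicrobial peptide of the caenacin family, had tails of 35.3 and 37 nt in libraries labelled ccr-4 RNAi, against 49.3 and 62.5 nt in control RNAi (difference -19.72 ± 4.56 nt, limma adjusted p = 0.674). The cyclin T gene cit-1.2 had 35.7 and 37.8 nt in libraries labelled ccr-4 RNAi, against 48.6 and 49.4 nt in control RNAi. For lim-9, which encodes a LIM-domain protein, tails were 24.8 and 32.1 nt in libraries labelled ccr-4 RNAi, against 36.4 and 45.7 nt in control RNAi. The genes btb-6 and clik-2, of a BTB-domain and a calponin-like protein, had differences of -20.62 and -20.66 nt. In cit-1.2 and btb-6 every library of the other RNAi groups also lay below both control libraries, at 34.6 to 46.1 nt for cit-1.2. In cnc-4, lim-9 and clik-2 some of those libraries overlapped with control RNAi. The value of control replicate 2 came from 6 to 23 tailed reads in these 5 genes. Without control replicate 1, whose absence leaves that shallow library alone on the control side, limma called 16 genes, 10 longer and 6 shorter, among them sas-5, cnc-4 and clik-2; no gene was called when any other of the 4 libraries was left out.

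Oocyte and maternal mRNAs include known targets of GLD-2, and their tails differed by little more than those of the median gene. Of 22 measured members, 19 had both libraries labelled ccr-4 RNAi above both control libraries and 0 had both below, beside 34.9% and 6.12% of all genes. None was called by limma, and 6 had an unadjusted p under 0.05. The list, 18 of whose members were among the GLD-2-dependent mRNAs described below, was chosen with earlier results known, and its median difference was 3.04 nt, beside 2.34 nt over all genes. With each library centred on its own median tail, the list's median was 0.51 nt and that of all genes -0.19 nt. The members pal-1, tdo-2 and pie-1 overlapped between groups. Without each of the 4 libraries in turn, 19 to 21 of the 22 lay above without overlap, beside 42.4% to 62.4% of all genes.

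The mRNA of oma-1, an RNA-binding protein needed for oocyte maturation, had tails of 30.3 and 31.5 nt in libraries labelled ccr-4 RNAi, against 24.9 and 25.8 nt in control RNAi (difference 5.59 ± 2 nt, unadjusted p = 0.0128 by limma). Its paralog oma-2 had 27.6 and 31.8 nt in libraries labelled ccr-4 RNAi, against 22.2 and 24.9 nt in control RNAi. For mex-5, which with mex-6 sets up the anterior of the zygote, tails were 31.9 and 29.1 nt in libraries labelled ccr-4 RNAi, against 25.65 and 25.06 nt in control RNAi. These 3 had values in each group that lay within 5 nt of each other and did not overlap. The mex-6 mRNA, with the shortest tails of this set, had 25.5 and 23.5 nt in libraries labelled ccr-4 RNAi, against 19.2 and 20.3 nt in control RNAi. The yolk receptor mRNA rme-2 had 36.2 and 37.3 nt in libraries labelled ccr-4 RNAi, against 33.7 and 29.1 nt in control RNAi. All of these had at least 116 tailed reads in every one of the 4 libraries, and none had an adjusted p under 0.67. For oma-1 every other RNAi library also lay above both control libraries, at 25.88 to 30.59 nt in parn-1, caf-1 and panl-2 RNAi. The mex-5 mRNA had 32.53 and 32.96 nt in panl-2 RNAi, but 24.75 nt in replicate 1 of caf-1 RNAi. For oma-2, replicate 2 had 30.96 nt in parn-1, 31.16 nt in caf-1 and 28.52 nt in panl-2 RNAi. In these groups rme-2 lay between both control values, and mex-6 had 20.06 to 23.89 nt.

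Eggshell and egg activation mRNAs were mixed. Of 15 measured members, 9 had both libraries labelled ccr-4 RNAi above both control libraries and 0 had both below, beside 34.9% and 6.12% of all genes, with a median difference of 2.67 nt, or 0.14 nt with centred libraries; 2 members are also in the oocyte list. The mRNA of cpg-3, a chondroitin proteoglycan of the eggshell, had 41.9 and 38.8 nt in libraries labelled ccr-4 RNAi, against 35.8 and 35.4 nt in control RNAi. Larger differences were seen at lower depth, for sqv-4, a UDP-glucose dehydrogenase (11.98 ± 3.67 nt), and egg-2, an oocyte surface protein needed for fertilization (11.06 ± 4.14 nt). For egg-2 every other RNAi library also lay above both control libraries. Replicate 1 had 42.9 nt in parn-1 RNAi and 41.78 nt in panl-2 RNAi, beside 40.01 and 35.93 nt in libraries labelled ccr-4 RNAi. For cpg-3 and sqv-4 some of the other RNAi libraries overlapped with control RNAi. The genes egg-3, egg-4 and chs-1 had differences of -1.88 to -0.91 nt and overlapped between groups.

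**Figure D3:**
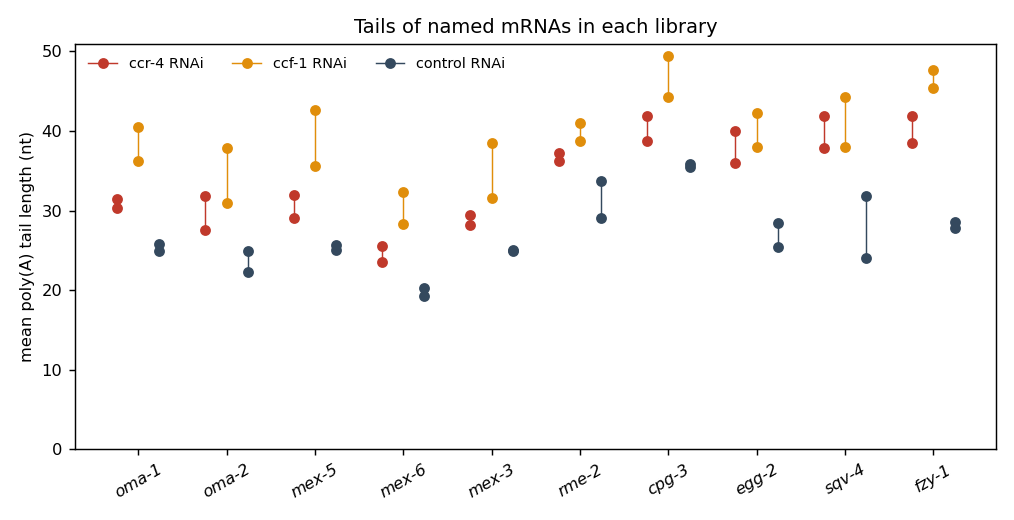
Mean tail length in nt of 10 named mRNAs in each library labelled ccr-4 RNAi, ccf-1 RNAi and control RNAi (2 points a group, joined by a line). The 10 were picked from genes named for a small p in this comparison. In all 10 both libraries labelled ccr-4 RNAi lie above both control libraries, which follows in part from that choice. Over all genes the share is 34.9%. For oma-1 the values are 30.3 and 31.5 nt in libraries labelled ccr-4 RNAi against 24.9 and 25.8 nt in control RNAi.

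Recruiters and regulators of deadenylation, among them PUF and Nanos family members, were the third group. Of 18 measured members of this list, 9 of them shared with the oocyte list, 14 had both libraries labelled ccr-4 RNAi above both control libraries and 0 had both below, beside 34.9% and 6.12% of all genes. Their median was 2.64 nt, 0.11 nt with centred libraries and 1.55 nt without control replicate 1. The mRNA of mex-3, a KH-domain translational repressor, had 28.2 and 29.5 nt in libraries labelled ccr-4 RNAi, against 25 and 25 nt in control RNAi. For sup-26, an RRM protein, tails were 35.4 and 36.2 nt in libraries labelled ccr-4 RNAi, against 30.7 and 27 nt in control RNAi.

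The deadenylase genes themselves had tails near the general shift. Over 13 measured members the median difference was 2.24 nt, 4 had both libraries labelled ccr-4 RNAi above both control libraries, and 1 had both below, which is near the 34.9% and 6.12% of all genes. The ntl-2.2 mRNA, of a CCR4-NOT subunit of the NOT2 family, had 36.4 and 35 nt in libraries labelled ccr-4 RNAi, against 31.4 and 26.2 nt in control RNAi. For panl-3, a subunit of the PAN2-PAN3 deadenylase, tails were 48.6 and 43 nt in libraries labelled ccr-4 RNAi, against 39.4 and 41.8 nt in control RNAi. The scaffold subunit gene let-711, the NOT1 homolog, had 39.6 and 34.8 nt in libraries labelled ccr-4 RNAi, against 30.9 and 34.3 nt in control RNAi. The fourth, parn-1, encodes a poly(A)-specific ribonuclease and had 37.6 and 34.9 nt in libraries labelled ccr-4 RNAi, against 31.8 and 33.9 nt in control RNAi. The member below was ntl-11, a CCR4-NOT subunit gene, with 9.43 and 10.7 nt in libraries labelled ccr-4 RNAi, against 13.6 and 14.5 nt in control RNAi. The partner deadenylase ccf-1 had 50.2 and 45.2 nt in libraries labelled ccr-4 RNAi, against 46 and 40.9 nt in control RNAi, and overlapped. The ccr-4 row overlapped too, at 1.47 nt (-1.06 nt with centred libraries). The remaining 6, ntl-2.1, ntl-3, ntl-4, ntl-9, panl-2 and pde-12, had differences of 1.29 to 2.74 nt with overlapping groups, and 5 of these 6, all but ntl-3, turned negative with centred libraries.

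Other classes lay on either side of the median gene. Ribosomal protein mRNAs, which are abundant and short-tailed, had a median difference of 0.64 nt over 46 genes, which became -1.89 nt with centred libraries. Their median tail was 26.04 and 25.13 nt in libraries labelled ccr-4 RNAi, against 24.8 and 24.6 nt in control RNAi. Neuronal mRNAs had a median of -0.16 nt over 28 genes (-2.69 nt centred), with 5 members above and 5 below in both libraries, beside 34.9% and 6.12% of all genes. The neuronal median was 1.29 nt without control replicate 1 and 0.74 nt without replicate 2 of ccr-4 RNAi, so its sign rests on these libraries. Cuticle collagens had 0.49 nt over 40 genes and intestinal mRNAs 1.05 nt over 25. Proteasome subunit mRNAs had 3.74 nt over 29 genes, or 1.21 nt centred, with 11 members above and 0 below, a share of 37.9% beside 34.9% of all genes. The proteasome median was 1.20 nt without replicate 1 of ccr-4 RNAi and 1.95 nt without control replicate 2, and the ribosomal median was 0.07 nt without replicate 1 of ccr-4 RNAi. No member of these lists was called, and the difference between lists was not tested.

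**Figure D4:**
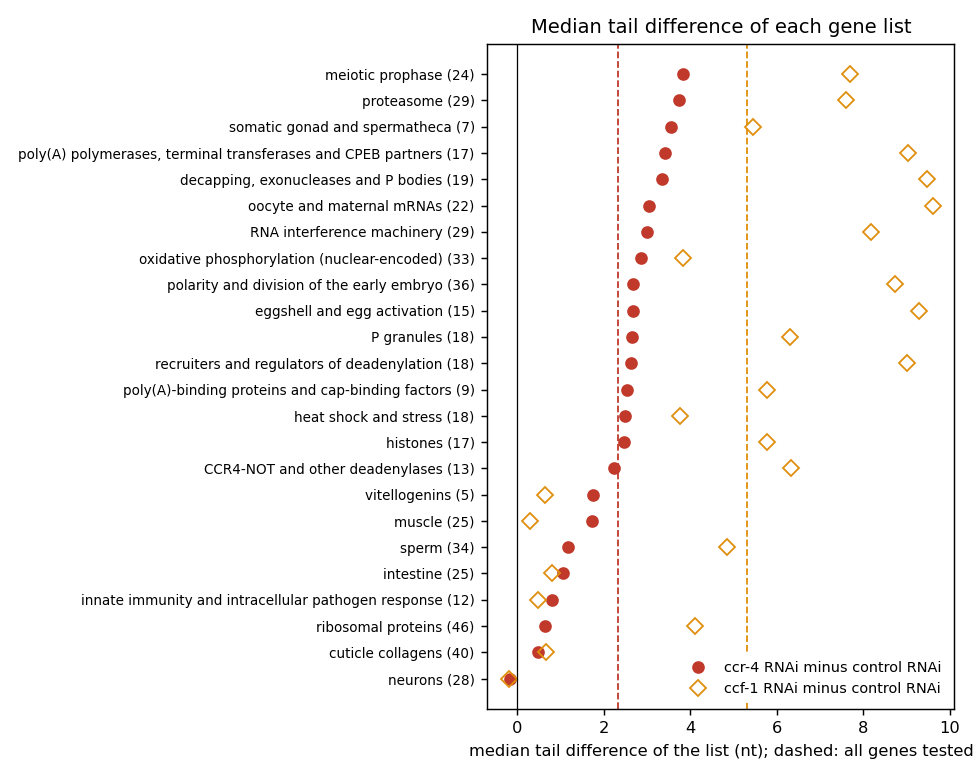
Median tail difference in nt of each gene list with 5 or more measured genes (number of genes measured in the ccr-4 comparison in brackets) for ccr-4 RNAi minus control RNAi (filled circles) and ccf-1 RNAi minus control RNAi (open diamonds); dashed lines are the medians of all genes tested, 2.34 and 5.31 nt. Both comparisons share the 2 control libraries. Oocyte and maternal mRNAs lie at 3.04 and 9.61 nt.

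The mRNAs named GLD-2-dependent here were those called shorter in gld-2 than N2 adults of the earlier run. These whole worms also differed in their shares of sperm and oocyte mRNAs, and dependence on GLD-2 itself was not tested. The earlier run shares no library with this comparison. There 891 of 7958 genes (11.2%) had shorter tails in untreated gld-2 adults than in N2 adults by limma, and 873 of them were measured here. Their median tail difference between the libraries labelled ccr-4 RNAi and control RNAi was 2.95 nt. It was 2.17 nt for 5753 genes that were measured in the earlier run and not called shorter in gld-2. Some of these others may have had shorter tails in gld-2 without passing the test. Of the 873, 91.3% were on the longer side, and in 58.9% both libraries labelled ccr-4 RNAi lay above both control libraries, beside 73.1% and 31.5% of the others. Members had more tailed reads: the fewest in any of the 4 libraries had a median of 71 for them and 25 for the others. Among genes with at least 100 tailed reads in each library, the median was 2.81 nt for 319 members and 1.86 nt for 860 others, with 71.5% and 40% above in both libraries. With centred libraries the 873 had a median of 0.42 nt. Leaving out each of the 4 libraries gave 2.05 to 3.97 nt.

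Tail levels of these mRNAs were as follows. Over 870 measured in all RNAi libraries, the median tail was 32.7 and 30.5 nt in libraries labelled ccr-4 RNAi, against 29.2 and 27.6 nt in control RNAi. It was 30.85 and 28.49 nt in parn-1 RNAi, 30.29 and 29.05 nt in caf-1 RNAi, and 30.11 and 29.59 nt in panl-2 RNAi. Replicate 1 of parn-1 RNAi thus lay above replicate 2 of ccr-4 RNAi. In ccf-1 RNAi the median tail was 36.02 and 38.85 nt. In the earlier run it was 27.9 to 30 nt in untreated gld-2 adults and 37.1 to 38.9 nt in N2 adults, over 864 of the genes. The run and the RNAi feeding cannot be told apart between these sets, so their levels stand side by side without a test. For oma-1 the N2 adults had 41.5 to 43.5 nt, and for mex-5 44.9 to 47.2 nt, beside at most 31.5 and 31.9 nt in libraries labelled ccr-4 RNAi. Across 6626 genes, the tail difference here and that between gld-2 and N2 adults had a Pearson's r of -0.08 and a Spearman's rho of -0.12; genes are not independent replicates, and both differences depend on tailed reads per gene. For scale, 306 mRNAs that were shorter by at least 10 nt in gld-2 adults had a median of 3.56 nt here.

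**Figure D5:**
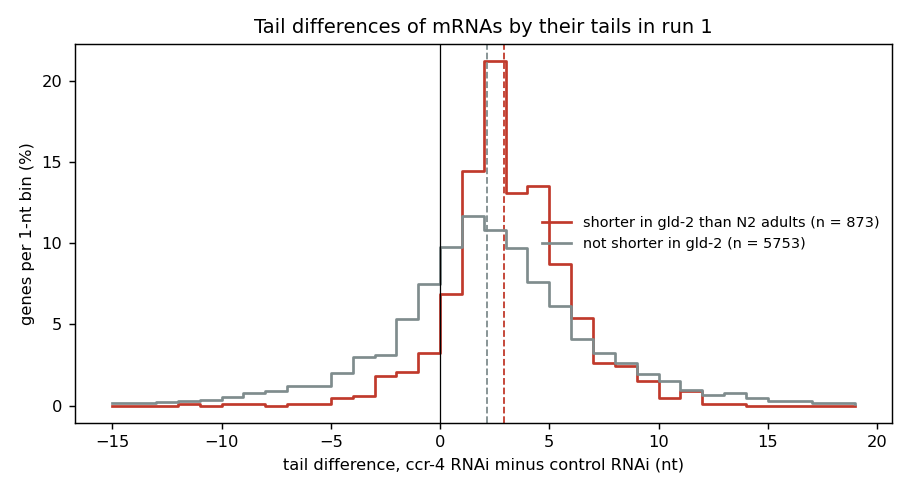
Distribution of tail differences, ccr-4 RNAi minus control RNAi, in 1-nt bins. Red: 873 mRNAs called shorter in gld-2 than N2 adults of the earlier run. Grey: 5753 measured there and not called shorter, which the legend gives as not shorter. Dashed lines are the medians, 2.95 and 2.17 nt.

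Against ccf-1 RNAi, the other catalytic subunit of the complex, tails in libraries labelled ccr-4 RNAi were shorter. The library medians were 36.7 and 34.3 nt in libraries labelled ccr-4 RNAi, against 38.1 and 38.8 nt in ccf-1 RNAi, and did not overlap (exact permutation p = 0.333, again the smallest possible). The median gene differed by -3.01 nt, and both libraries labelled ccr-4 RNAi lay below both ccf-1 libraries in 2980 of 7025 genes (42.4%) and above in 616 (8.77%). Limma called 0 genes (0%; smallest adjusted p 0.064), with 1270 at an unadjusted p under 0.05, of which 1189 had shorter tails in libraries labelled ccr-4 RNAi. On log2 tail lengths 67 genes were called, all shorter in libraries labelled ccr-4 RNAi. Oocyte mRNAs had a median of -5.72 nt, with 18 of 22 below in both libraries and 0 above. The oma-1 mRNA had 30.3 and 31.5 nt in libraries labelled ccr-4 RNAi, against 36.2 and 40.5 nt in ccf-1 RNAi. Ribosomal protein mRNAs had a median of -3.57 nt, with 41 of 46 below in both, while neuronal mRNAs had -0.33 nt.

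Against the same 2 control libraries, ccf-1 RNAi gave 1331 longer and 13 shorter tails of 6678 genes (20.1%) and a median of 5.31 nt, where the libraries labelled ccr-4 RNAi gave 0 of 6698 and 2.34 nt. Among the 22 oocyte mRNAs, 18 were called longer in ccf-1 RNAi and 0 in libraries labelled ccr-4 RNAi. Since both comparisons use the same controls, the direct comparison above is the test of their difference; it called 0 genes, but 174 with the replicate number as a block, 172 of them with shorter tails under the ccr-4 RNAi label.

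Against the mean of the parn-1, caf-1 and panl-2 RNAi groups, the libraries labelled ccr-4 RNAi differed less. The median gene differed by 1.06 nt, limma called 0 of 6955 genes (0%), and 212 (3.05%) had an unadjusted p under 0.05. The library medians differed by 1.21 nt (exact permutation p = 0.393, where 0.0357 is the smallest possible). Oocyte mRNAs had a median of 1.71 nt and proteasome subunits 2.46 nt.

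Expression, measured as read counts, differed little between the libraries labelled ccr-4 RNAi and control RNAi. EdgeR called 0 of 9908 genes (0%), with 258 at an unadjusted p under 0.05 (2.6%), of which 116 were lower; DESeq2 called only ccr-4. The median log2 change was 0.04, and the median standard error of a gene was 0.43 on the log2 scale. Both libraries labelled ccr-4 RNAi lay above both control libraries in 1897 genes (19.1%) and below in 1351 (13.6%). In whole worms, fewer cells of a type and less RNA per cell cannot be told apart.

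Besides ccr-4, the genes with the smallest unadjusted p for higher counts were btbd-10, ugt-44, mom-2 and nepr-1, and none was called. The CPM of genes named for expression here and below are scaled by TMM. The Wnt ligand gene mom-2, which acts in the early embryo, had 32.5 and 33.3 CPM in libraries labelled ccr-4 RNAi, against 16.8 and 17.8 CPM in control RNAi (log2 change 0.93 ± 0.27, edgeR adjusted p = 0.999). For btbd-10, which encodes a BTB-domain protein, there were 114 and 79.2 CPM in libraries labelled ccr-4 RNAi, against 53 and 47.2 CPM in control RNAi. Values for ugt-44, a glucuronosyltransferase gene, were 25.9 and 16.9 CPM in libraries labelled ccr-4 RNAi, against 7.64 and 7.01 CPM in control RNAi. The gene nepr-1, a regulatory subunit of a nuclear envelope phosphatase, had 204 and 189 CPM in libraries labelled ccr-4 RNAi, against 136 and 105 CPM in control RNAi.

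On the lower side were pgph-3, ftn-1, hel-1, nlp-13 and xbp-1. The transcription factor gene xbp-1, of the unfolded protein response, had 125 and 112 CPM in libraries labelled ccr-4 RNAi, against 194 and 166 CPM in control RNAi (log2 change -0.61 ± 0.22, edgeR adjusted p = 0.999). For the ferritin gene ftn-1 there were 19.5 and 21.5 CPM in libraries labelled ccr-4 RNAi, against 30.3 and 41.1 CPM in control RNAi. The neuropeptide gene nlp-13 had 11.3 and 11.9 CPM in libraries labelled ccr-4 RNAi, against 21.8 and 20.1 CPM in control RNAi. The remaining pair, hel-1 of a DEAD-box RNA helicase and pgph-3 of a predicted phosphoglycolate phosphatase, had log2 changes of -0.67 and -1.71. In pgph-3 the control values of 78.5 and 29 CPM lay far apart.

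Sperm genes, many of them major sperm protein copies, had the highest median log2 change of the lists measured. Of 43 measured members, 32 had both libraries labelled ccr-4 RNAi above both control libraries and 0 had both below, beside 19.1% and 13.6% of all genes, with a median log2 change of 0.80; none was called and none had an unadjusted p under 0.05. The 49 rows of the list took 0.151% and 0.0944% of counts outside ribosomal RNA in libraries labelled ccr-4 RNAi, against 0.0666% and 0.0705% in control RNAi. Replicate 1 of ccr-4 RNAi was the higher, and without it the median difference of log2(mean CPM + 1) was 0.36, against 0.75 with all 4 libraries. The other RNAi libraries ranged from 0.0344% in 1 of caf-1 RNAi to 0.137% in 1 of ccf-1 RNAi, so replicate 1 of ccr-4 RNAi lay above all of them and replicate 2 within their range. For ssq-2, a sperm-specific gene, there were 25.4 and 21.9 CPM in libraries labelled ccr-4 RNAi, against 7.49 and 11.7 CPM in control RNAi. Since msp copies are nearly identical in sequence, how reads were divided among them is uncertain.

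Of the ribosomal protein genes, 23 of 46 had both libraries labelled ccr-4 RNAi below both control libraries and 0 above, beside 13.6% and 19.1% of all genes, with a median log2 change of -0.20 and none called. They took 21.1% and 22% of counts outside ribosomal RNA in libraries labelled ccr-4 RNAi, against 23.6% and 24.4% in control RNAi. The vitellogenin yolk genes had 4 of 5 members above in both libraries, beside 19.1% of all genes, with a median log2 change of 0.36, none called. Without replicate 1 of ccr-4 RNAi the vitellogenin median was 0.16. The mRNA of vit-2 had 8670 and 9881 CPM in libraries labelled ccr-4 RNAi, against 6411 and 7777 CPM in control RNAi. In reads, oocyte mRNAs had a median log2 change of 0.07. Of 23 members, 5 lay above (21.7%, beside 19.1% of all genes) and 1 below (4.35%, beside 13.6%). Across 6698 genes the tail difference and the log2 change in reads had a Pearson's r of -0.05 and a Spearman's rho of -0.06, over the same libraries.

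Other deadenylase genes did not pass the test in counts. Over the 13 members the median log2 change was 0.14, 6 lay above in both libraries, ccr-4 included, and 1 below, beside 19.1% and 13.6% of all genes. Scaled by TMM, the partner subunit ccf-1 had 114 and 95.2 CPM in libraries labelled ccr-4 RNAi, against 94 and 74.8 CPM in control RNAi. Its log2 change was 0.31 ± 0.22 (edgeR adjusted p = 0.999). For ntl-9, which encodes the CAF40 homolog, there were 215 and 141 CPM in libraries labelled ccr-4 RNAi, against 139 and 99.5 CPM in control RNAi. The CCR4-NOT subunit gene ntl-4 was the one below, with 31.4 and 44 CPM in libraries labelled ccr-4 RNAi, against 48.5 and 50.9 CPM in control RNAi. The scaffold gene let-711 had 107 and 112 CPM in libraries labelled ccr-4 RNAi, against 108 and 117 CPM in control RNAi.

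Against the other RNAi groups the counts gave 1 call. Set against ccf-1 RNAi, edgeR called 0 of 9908 genes (0%), with 496 at an unadjusted p under 0.05 (5.01%), while DESeq2 called 1. Set against the mean of the parn-1, caf-1 and panl-2 RNAi groups, edgeR called 1 gene (0.0101%), which was ccr-4 itself, with a log2 change of 6.42 (adjusted p = 0.00563), and DESeq2 also called 1; 428 genes (4.32%) had an unadjusted p under 0.05. Ribosomal protein genes lay above ccf-1 RNAi in both libraries labelled ccr-4 RNAi in 41 of 46 members, with a median log2 change of 0.54 and none called; over all genes that share was 21.7%.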

How the data were processed

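For each gene row, the authors deposited raw read counts, counts of reads with a tail, and a mean poly(A) tail length over the tailed reads, which is a score in nt. Bowtie and Bowtie2 2.2.4 with build ce10 are listed, per the submitters' processing notes, without how reads were counted or tails called. Coordinates are those of the deposited tables; RefSeq names of another build were used for symbols only.

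Counts were tested with edgeR 4.0.16 (quasi-likelihood, robust, TMM, filterByExpr) in R 4.3.3, with DESeq2 1.42.0 as an alternative. For tail lengths the test was limma 3.58.1, with robust eBayes and a variance trend on mean log2 tailed reads. Lengths resting on fewer than 5 tailed reads were set to missing; genes were kept with 20 tailed reads on average and 2 values per group compared. The 12 RNAi libraries shared 1 fit without covariates; p was adjusted by Benjamini-Hochberg over all genes and called under 0.05. Both fits were tested on simulated data. Errors are SD for levels and SE for changes. The comparison and the lists were chosen with earlier results of these data known.

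Genes named are all deadenylase members, and up to 5 genes per measure and direction with the smallest unadjusted p. Those up to 5 genes needed groups that did not overlap and a locus name. For expression only, they also needed 20 CPM or more in the higher group. Of each described list, up to 4 members with the smallest p were named as well. Other members named, pal-1, tdo-2, pie-1, egg-3, egg-4 and chs-1 among them, were chosen after their values were seen.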

Additional observations from a re-analysis of the deposited data

Results flagged for a closer look

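The ccr-4 reads differed between RNAi groups: the log2 change between ccr-4 RNAi and the mean of the parn-1, caf-1 and panl-2 RNAi groups was 6.42 (edgeR adjusted p = 0.00563). The embryo libraries of the same run, which enter no comparison here, held 504.9 and 153.7 unscaled CPM at the ccr-4 row, against 1.98 to 3.24 in N2 adults. Their mean tails at this row, in embryos, were 13.6 to 15.4 nt. The groups compared have 2 libraries each, too few to look for a single outlying sample.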

How the results depend on the processing

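Depth was limited by control replicate 2, and the groups of 2 libraries allow no exact p under 0.333. Against control RNAi, expression calls by edgeR numbered 0, but 1 with DESeq2 (ccr-4, log2 change 5.93) and 8 without a filter on low counts, all lower in ccr-4 RNAi, among them pgph-3. Against ccf-1 RNAi, DESeq2 called 1. Against the mean of parn-1, caf-1 and panl-2 RNAi, 1 call became 11 without the filter, 6 higher and 5 lower. Leaving out each library gave 0 expression calls throughout. Tail calls against control RNAi ranged from 0 to 16 with a library left out, the 16 without control replicate 1, where the lone control library was assumed to vary like the other groups. Against ccf-1 RNAi they numbered 67 on the log2 scale and 0 to 5 with a library left out, the 5 without ccf-1 replicate 1. The difference of library medians ranged from 1.36 to 3.74 nt. The median of the GLD-2-dependent mRNAs ranged from 2.05 to 3.97 nt, and was 0.42 nt with tails centred per library. The causes were not tested.

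Same-numbered libraries were not treated as pairs, since not every pair of groups passed a correlation of 0.1: deviations correlated above 0.1 in 12 of 15 group pairs for expression and in 1 of 15 for tails. A shift shared by all genes of a library does not enter these correlations. The median tail was longer in replicate 1 than in replicate 2 in every RNAi group except ccf-1 RNAi (38.1 and 38.8 nt). Whether the replicate numbers mark a batch was not tested. With the replicate number as a block, tail calls against ccf-1 RNAi numbered 174, 172 of them shorter; the block gave 0, 0 and 1 calls for expression and 0 for the other tail comparisons.

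No deadenylase gene passed the test by edgeR or limma against control RNAi, and several turned in sign. With centred tails, the differences were -1.06 nt for ccr-4, -1.24 for ntl-2.1, -0.46 for ntl-4, -0.29 for ntl-9, -1.09 for panl-2 and -0.70 for pde-12. With a library left out, tail differences ranged from -5.81 to 8.75 nt for ccr-4, -0.62 to 3.20 for ntl-2.1, -0.76 to 4.90 for ntl-4, -1.24 to 4.12 for panl-2 and -2.34 to 6.00 for pde-12. Log2 changes in reads ranged from -0.091 to 0.017 for let-711, -0.16 to 0.0090 for ntl-2.1, -0.24 to 0.021 for ntl-2.2, -0.17 to 0.39 for ntl-3, -0.43 to 0.54 for ntl-11 and -0.035 to 0.22 for parn-1. Of 306 refits of 34 named genes in expression, 298 kept direction and call, and of 541 refits of 50 in tails, 526 did. None of these genes was called in the main fits, so a kept call meant only that a gene stayed uncalled. Genes named for groups that did not overlap could hardly turn in direction with a library left out. These totals are therefore no measure of robustness.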

Other observations

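No gene of the lists below was called by limma; over all genes the median tail difference was 2.34 nt, with 34.9% above and 6.12% below without overlap. Meiotic prophase mRNAs had a median of 3.83 nt over 24 genes, with 12 having both libraries labelled ccr-4 RNAi above both control libraries and 0 below; with centred libraries the median was 1.31 nt. Oxidative phosphorylation mRNAs had 2.87 nt over 33 genes (0.34 nt centred), with 18 above and 1 below. The mRNA of ucr-1, a core subunit of mitochondrial complex III, had 53.2 and 49.9 nt in libraries labelled ccr-4 RNAi, against 44.5 and 44.8 nt in control RNAi. P granule mRNAs had a median of 2.65 nt over 18 genes (0.12 nt centred), with 5 above and 0 below. Their member pgl-3 had tails of 52 and 48.7 nt in libraries labelled ccr-4 RNAi, against 41.6 and 40.7 nt in control RNAi. Tails of sperm mRNAs had a median of 1.18 nt over 34 genes (-1.35 nt centred), with 9 above and 2 below. Muscle mRNAs had a median of 1.73 nt over 25 genes, or -0.80 nt with centred libraries.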
